A study of Mus musculus with 6 samples.

Results

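The comparison described here sets a mouse mammary tumour line kept under daily hydrogen peroxide (H2O2) for 7 months, at 80 µM, against the untreated line kept beside it. The treated line is I80 and the untreated line is PBS. Both are MTflEcad cells, epithelial breast cancer cells from a mammary tumour of the MMTV-Neu strain, in which the mouse mammary tumour virus promoter drives a Neu (ERBB2) oncogene in mammary epithelium, so both groups carry the transgene. Of the 6 RNA-seq libraries of the study, 4 belong to this comparison, 2 of I80 and 2 of PBS. The other 2 are of DI150, the same cells after 7 months of 150 µM H2O2, and appear here where a value is set beside those of I80. Members were the genes whose CPM, the reads of a gene scaled to 1000000 reads assigned to genes, averaged 1 or more across the 6 libraries, which held for 11428 of the 24454 genes in the table. Each dose is 1 line, so that dose and line cannot be told apart. The study describes the libraries as biological duplicates, and nothing in the labels says that they came from separate long-term cultures. The p-values therefore measure the spread between these libraries, which may be technical.

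H2O2 is a diffusible by-product of metabolism and a signalling molecule. Cells remove it with catalase, with glutathione peroxidases and with peroxiredoxins, and the latter enzyme families draw their electrons from glutathione, thioredoxin and, in the end, NADPH. Many genes of these routes are controlled by NRF2 (Nfe2l2), a transcription factor that KEAP1 marks for degradation until an oxidant or electrophile modifies KEAP1.

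Both lines carried the RNA of epithelial cells. Of 8 epithelial markers (keratins 8, 18 and 19, claudins 3, 4 and 7, Epcam and Cdh1) all 8 were tested, 6 were lower and none was higher in I80, and their CPM summed to 6523 and 6566 in PBS and to 3132 and 3112 in I80. Of 10 fibroblast markers 3 were tested, 2 were higher and 1 lower, with sums of 23.6 and 25.6 CPM in PBS and 23.8 and 24.4 CPM in I80, and 2 of the 10 at 0 in both. Of 11 leukocyte markers 3 were tested and 2 were lower, with sums of 86.6 and 102.3 CPM in PBS and 26.6 and 22.1 CPM in I80, most of it Cd14, and 5 at 0. Endothelial markers summed to at most 4.45 CPM and adipocyte markers to at most 0.162 CPM in any of the 4 libraries. In bulk RNA, fewer cells of a type and less RNA per cell cannot be told apart. The part of these marker shifts in the other results was not tested. Totals ran from 21017849 to 26608715 assigned reads per library. Replicates differed by a median of 0.15 in PBS and 0.07 in I80 (absolute log2), and 170 tested genes stood over 2-fold apart between the PBS replicates against 1 gene in I80.

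In I80, 3687 tested genes were higher than in PBS (32.3%) and 3904 were lower (34.2%), together 66.4%, by limma on log2(CPM + 0.5) at a Benjamini-Hochberg adjusted p under 0.05, the rule for every call here. Folds are ratios of mean CPM, and every named change has PBS and I80 libraries that do not overlap, as 83.7% of all tested genes do. By that ratio 1128 genes (9.87%) were called and at least 2-fold higher, and 1408 (12.3%) were called and at least 2-fold lower. Falls were more frequent at the larger sizes, with 454 genes higher and 695 lower past 4-fold, and 159 higher and 364 lower past 16-fold. The same held for genes that went to or came from silence. There were 78 genes averaging 5 CPM or more in PBS and without a read in I80, and 11 genes the other way. A limit of 0 reads depends on scattered reads, and 14244 and 15015 genes had a read in PBS against 14028 and 14085 in I80. With over 100 CPM in PBS and under 1 CPM in I80 there were 17 genes, and 6 genes the other way. The median log2 fold change over all tested genes was -0.0020.

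**Figure D1:**
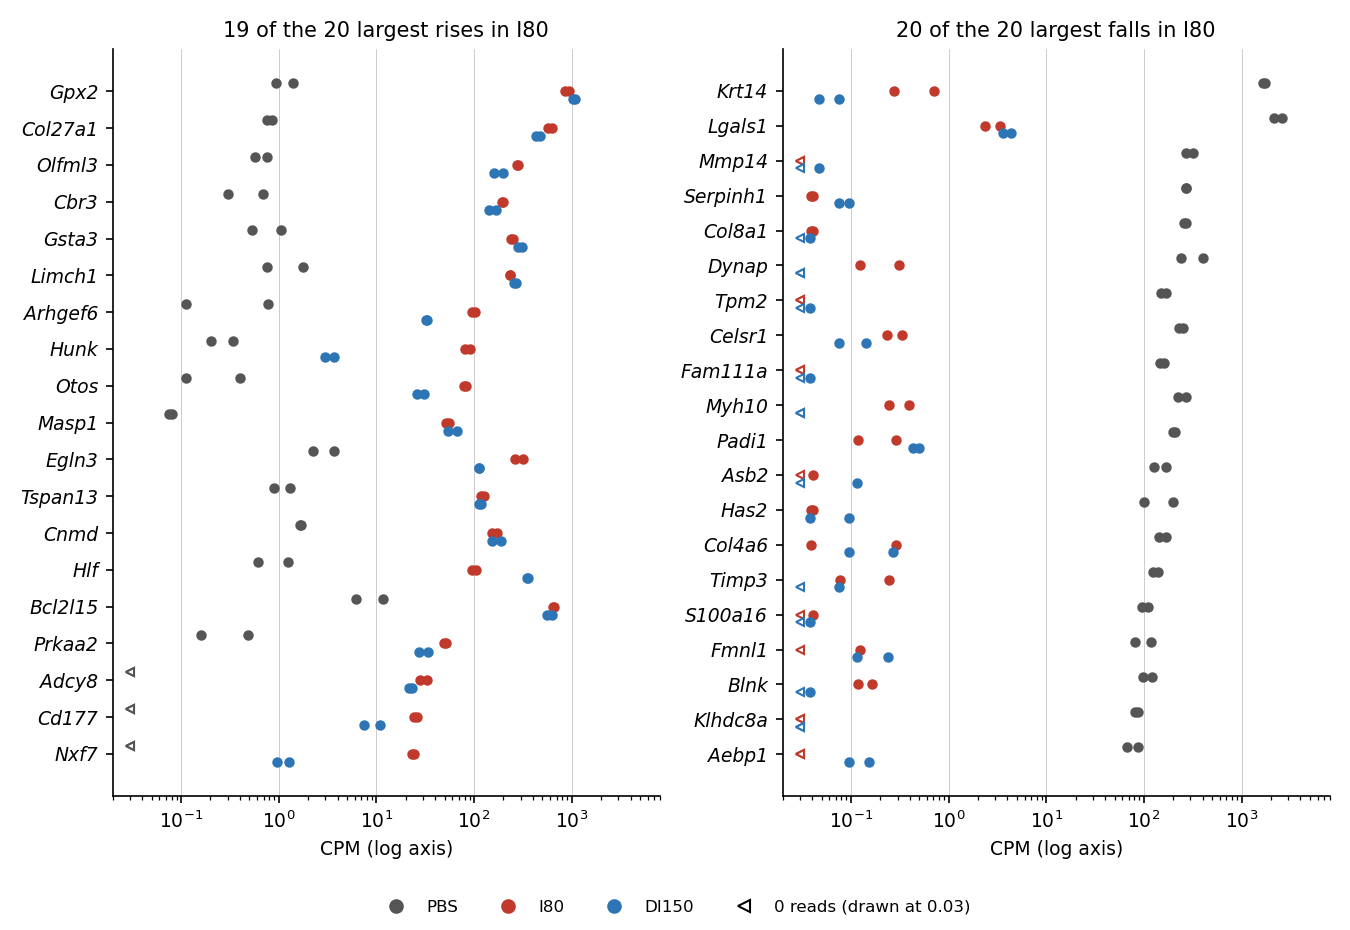
CPM on a log axis in each PBS, I80 and DI150 library (1 dot per library) for 19 of the 20 largest rises and the 20 largest falls in I80, among called genes averaging 5 CPM or more in the PBS and I80 libraries. Open triangles at the left mark libraries with 0 reads. The 39 genes drawn were chosen to have PBS and I80 libraries that do not overlap, so their dots lie apart. Genes with a predicted-gene or clone name were left out of the ranking. Most DI150 dots lie on the I80 side, set against the same PBS libraries that chose the genes.

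Among the largest rises was a kinase of the AMPK-related family. Hunk (gene 26559, chromosome 16 at 90385284 to 90499555 of GRCm38) was at 0.338 and 0.202 CPM in PBS and 90.4 and 80.6 CPM in I80, 316-fold higher (log2 fold change 6.81 ± 0.16 SE, limma adjusted p = 7.28e-08). It reached only 2.998 and 3.66 CPM in DI150 (against I80, adjusted p = 4.13e-06). Limch1, an actin-associated protein, rose 184-fold (309.8 without PBS replicate 2), from 0.752 and 1.78 to 234 and 232 CPM. Masp1, a protease of the lectin pathway of complement, rose 688-fold, from 0.0752 and 0.0809 CPM, a few reads, to 55.7 and 51.6 CPM. Otos, known from the inner ear, rose from 0.113 and 0.404 to 82.6 and 79.3 CPM.

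Enzymes and regulators of metabolism were also among the largest rises. Egln3, a prolyl hydroxylase that marks HIF-alpha subunits for degradation in the presence of oxygen, was at 2.22 and 3.72 CPM in PBS and 316 and 261 CPM in I80, 97.2-fold higher, and lower again in DI150 at 113 and 112 CPM (DI150 against I80, limma adjusted p = 0.00142). Prkaa2, a catalytic subunit of the energy sensor AMPK, rose from 0.489 and 0.162 to 51.3 and 49.3 CPM. Hlf, a transcription factor of the PAR bZIP family, rose 109-fold (166 without PBS replicate 1), from 1.24 and 0.607 to 105 and 96.1 CPM, below the 350.5 and 357 CPM of DI150 (adjusted p = 0.000351 between these lines). Cnmd, a secreted inhibitor of vessel growth known from cartilage, rose 97.3-fold to 154 and 172 CPM. Bcl2l15, a member of the BCL2 family, rose 72.3-fold, from 6.201 and 11.8 to 644 and 657 CPM. Some genes had no read in PBS. Adcy8, an adenylyl cyclase, reached 33.0 and 27.9 CPM, at least 260.3-fold higher against a floor of 3 reads per library, which covers counting error only. Cd177, a surface glycoprotein of neutrophils, reached 24.3 and 26.2 CPM, and Nxf7, a member of the mRNA export factor family, 22.98 and 24.03 CPM. Nxf7 was at 1.28 and 0.954 CPM in DI150 (against I80, adjusted p = 9.66e-06).

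The largest falls were of abundant genes that became nearly or wholly undetected, which follows in part from the ranking. Falls were ranked by the fitted log2 fold change, where the constant added to each CPM limits how far a gene can fall. A gene at low CPM in PBS could therefore not enter this ranking, even without a read in I80. Tpm2, an actin-binding tropomyosin, was at 148 and 167 CPM in PBS and was not seen in I80, at least 1307-fold lower by the same floor (limma adjusted p = 3.47e-08). Fam111a, a nuclear protease, went from 162 and 146 CPM to no read, at least 1279-fold lower. Celsr1, a cadherin of planar cell polarity, fell 856-fold, from 229.6 and 253 to 0.234 and 0.330 CPM. Myh10, a heavy chain of nonmuscle myosin, fell 767-fold, from 267 and 222 to 0.390 and 0.247 CPM. Tropomyosin and myosin act on actin filaments. Padi1, which converts arginine to citrulline in keratinocyte proteins, fell from 200.4 and 207 to 0.117 and 0.289 CPM. Timp3, an inhibitor of metalloproteinases held in the matrix, fell 811-fold (534 without I80 replicate 1, 1691 without I80 replicate 2), from 125 and 139 to 0.0780 and 0.247 CPM. Has2, a hyaluronan synthase, had 99.8 and 199 CPM in PBS and 1 read in each I80 library, a ratio of pooled reads of 3685 (95% exact interval 1019.6 to 30430.0). Aebp1, known from connective tissue and fat, went from 67.4 and 86.9 CPM to no read.

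By absolute CPM, which depends on gene length, the rises with the largest gain were led by Aldh3a1, an aldehyde dehydrogenase of the cytosol. It was at 498 and 1082 CPM in PBS and 4726 and 5317 CPM in I80 (6.36-fold higher, limma adjusted p = 0.000197), with the PBS libraries far from each other, and 10.1 without PBS replicate 2. Nes, the intermediate filament nestin, followed, from 342 and 316 to 2114 and 2186 CPM. Mfge8, a milk fat globule protein that bridges dying cells to phagocytes, rose 7.31-fold, to 2035 and 1993 CPM. The largest loss was that of a keratin of simple epithelium, Krt7, from 3429 and 3093 to 643 and 653 CPM. Emp1, an epithelial membrane protein, fell 7.00-fold, from 2366 and 2472 to 358 and 332 CPM, and Spp1, the secreted phosphoprotein osteopontin, 4.85-fold, from 1864 and 3008 to 536 and 469 CPM. Anxa1 and Anxa2, membrane-binding annexins, fell 3.44-fold and 3.96-fold.

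**Figure D2:**
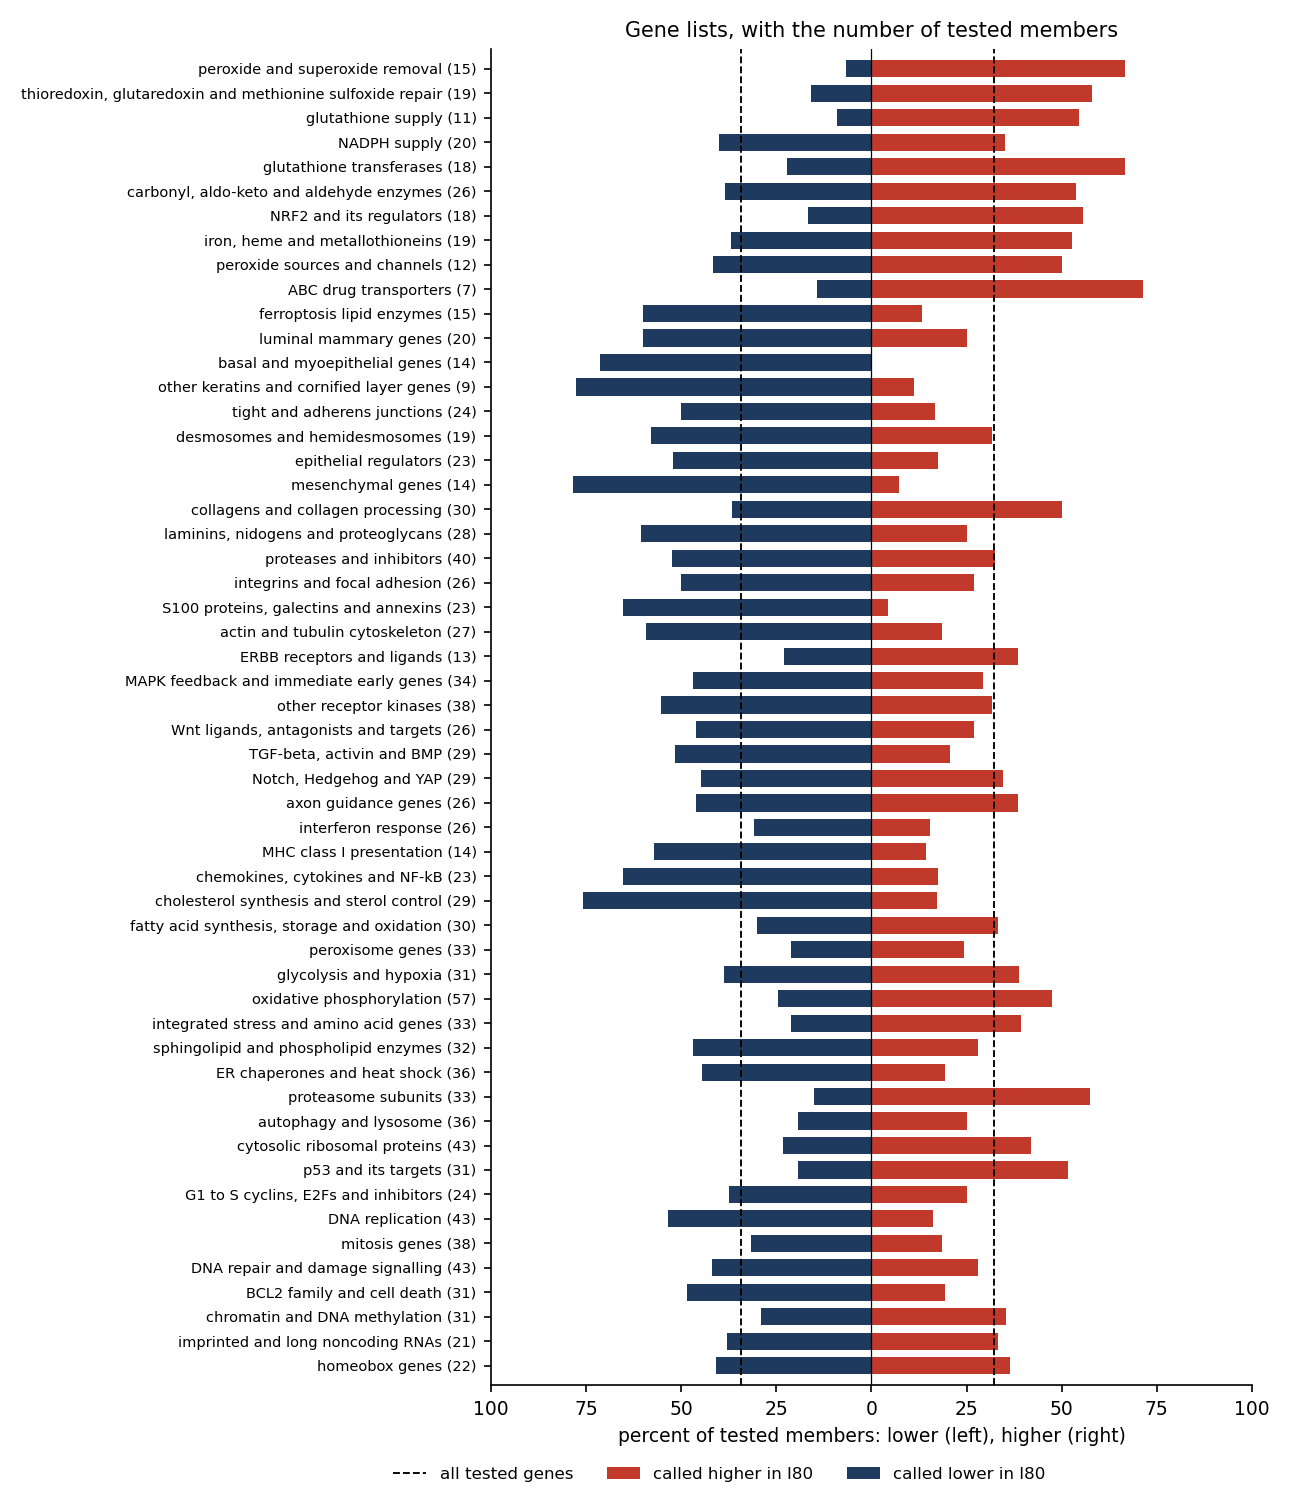
Share of the tested members of each gene list that was called higher (bars to the right) or lower (bars to the left) in I80 than in PBS, in percent, with the number tested in parentheses and dashed lines at the shares over all tested genes, 32.3% and 34.2%. ABC drug transporters, with 7 tested, glutathione transferases and peroxide removal extend far to the right. Among those far to the left are mesenchymal genes, other keratins and cornified layer genes, cholesterol synthesis and basal genes. The S100, galectin and annexin genes and the chemokine list lie to the left as well.

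Enzymes that remove peroxide or restore the enzymes doing so were mostly higher. Of 18 listed genes of peroxide and superoxide removal 15 were tested, 10 were higher and 1 lower (against 32.3% and 34.2% of all tested genes), with a median log2 fold change of 0.71. These shares are the background for the counts of each list below, and a list near them moved as tested genes did as a whole. Prdx1, a cytosolic peroxiredoxin, was at 563 and 558 CPM in PBS and 2058 and 2221 CPM in I80, 3.82-fold higher (log2 fold change 1.93 ± 0.08 SE, limma adjusted p = 8.84e-07). DI150 was lower than I80 here, at 1482 and 1346 CPM (adjusted p = 0.00125). Prdx2, the closest relative of Prdx1, was the only called fall of the list, from 377 and 389.6 to 162 and 163 CPM (2.35-fold lower, limma adjusted p = 2.94e-06). The superoxide dismutase genes Sod1, of the cytosol, and Sod2, of mitochondria, rose 1.70-fold and 1.63-fold. Sod1 was at 177 and 185 CPM in I80 against 111 and 102 CPM in PBS and 105 and 105 CPM in DI150. Gpx8, a peroxidase of the endoplasmic reticulum, rose 3.31-fold. Gpx4, which reduces lipid peroxides in membranes, stood at 36.9 and 40.2 CPM in PBS and 34.8 and 37.2 CPM in I80 (limma adjusted p = 0.363), and Prdx4 did not pass either (adjusted p = 0.894).

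All 19 listed genes of thioredoxin, glutaredoxin and methionine sulfoxide repair were tested, of which 11 were higher and 3 lower (1 lower without I80 replicate 1). The reductases moved and thioredoxin itself did not pass. Txn1 was at 389 and 355 CPM in PBS and 399 and 427 CPM in I80 (limma adjusted p = 0.0985, and 0.0320 without PBS replicate 1). Its reductase Txnrd1 was at 344 and 291 CPM and 756 and 828 CPM, 2.50-fold higher, and the mitochondrial Txnrd2 was 3.07-fold higher. Txnip, which binds and inhibits thioredoxin, rose 13.8-fold, from 4.13 and 10.7 to 109.5 and 95.0 CPM. The PBS replicates of Txnip lay far apart, and without PBS replicate 2 the ratio was 24.7. Of the methionine sulfoxide reductases, Msrb3 rose 3.85-fold, from 39.1 and 48.4 to 168 and 168 CPM, while Msra, which acts on the other stereoisomer of the oxidised residue, fell 2.49-fold, from 10.3 and 9.75 to 3.82 and 4.20 CPM.

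Glutathione itself is made from cysteine, glutamate and glycine, and 11 of 15 listed genes of its supply were tested. Of these, 6 were higher and 1 was lower (0 lower without I80 replicate 2 or PBS replicate 2), with a median log2 fold change of 0.77. Gclc, the catalytic subunit of the first enzyme, rose 2.80-fold, from 85.2 and 77.2 to 216 and 238 CPM (limma adjusted p = 3.03e-06), and Abcc1, an exporter of glutathione and its conjugates, 2.88-fold. The enzyme of the second step, Gss, and glutathione reductase, Gsr, did not pass (adjusted p = 0.0606 and 0.438, with Gss at 0.0441 under TMM scaling), with Gsr at 277 and 246 CPM in PBS and 263 and 289 CPM in I80.

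The glutathione transferases, which join glutathione to electrophiles, had the highest median of the redox lists, 1.66 on the log2 scale, with 18 of 24 tested, 12 higher and 4 lower. Gstp1 was at 56.3 and 54.0 CPM in PBS and 397 and 382 CPM in I80, 7.06-fold higher (limma adjusted p = 7.27e-07). The microsomal Mgst1 rose 5.71-fold, from 69.2 and 92.5 to 434 and 489 CPM. Gstm1 was nearly undetected in PBS at 1.73 and 1.90 CPM and reached 67.3 and 76.8 CPM, 39.7-fold higher. Gsta4, which acts on products of lipid peroxidation, rose 3.03-fold, from 128 and 152 to 402 and 449 CPM. Gstcd fell 2.49-fold. The Gstm and Gsta genes are close copies of each other, so the split of reads between them is uncertain.

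**Figure D3:**
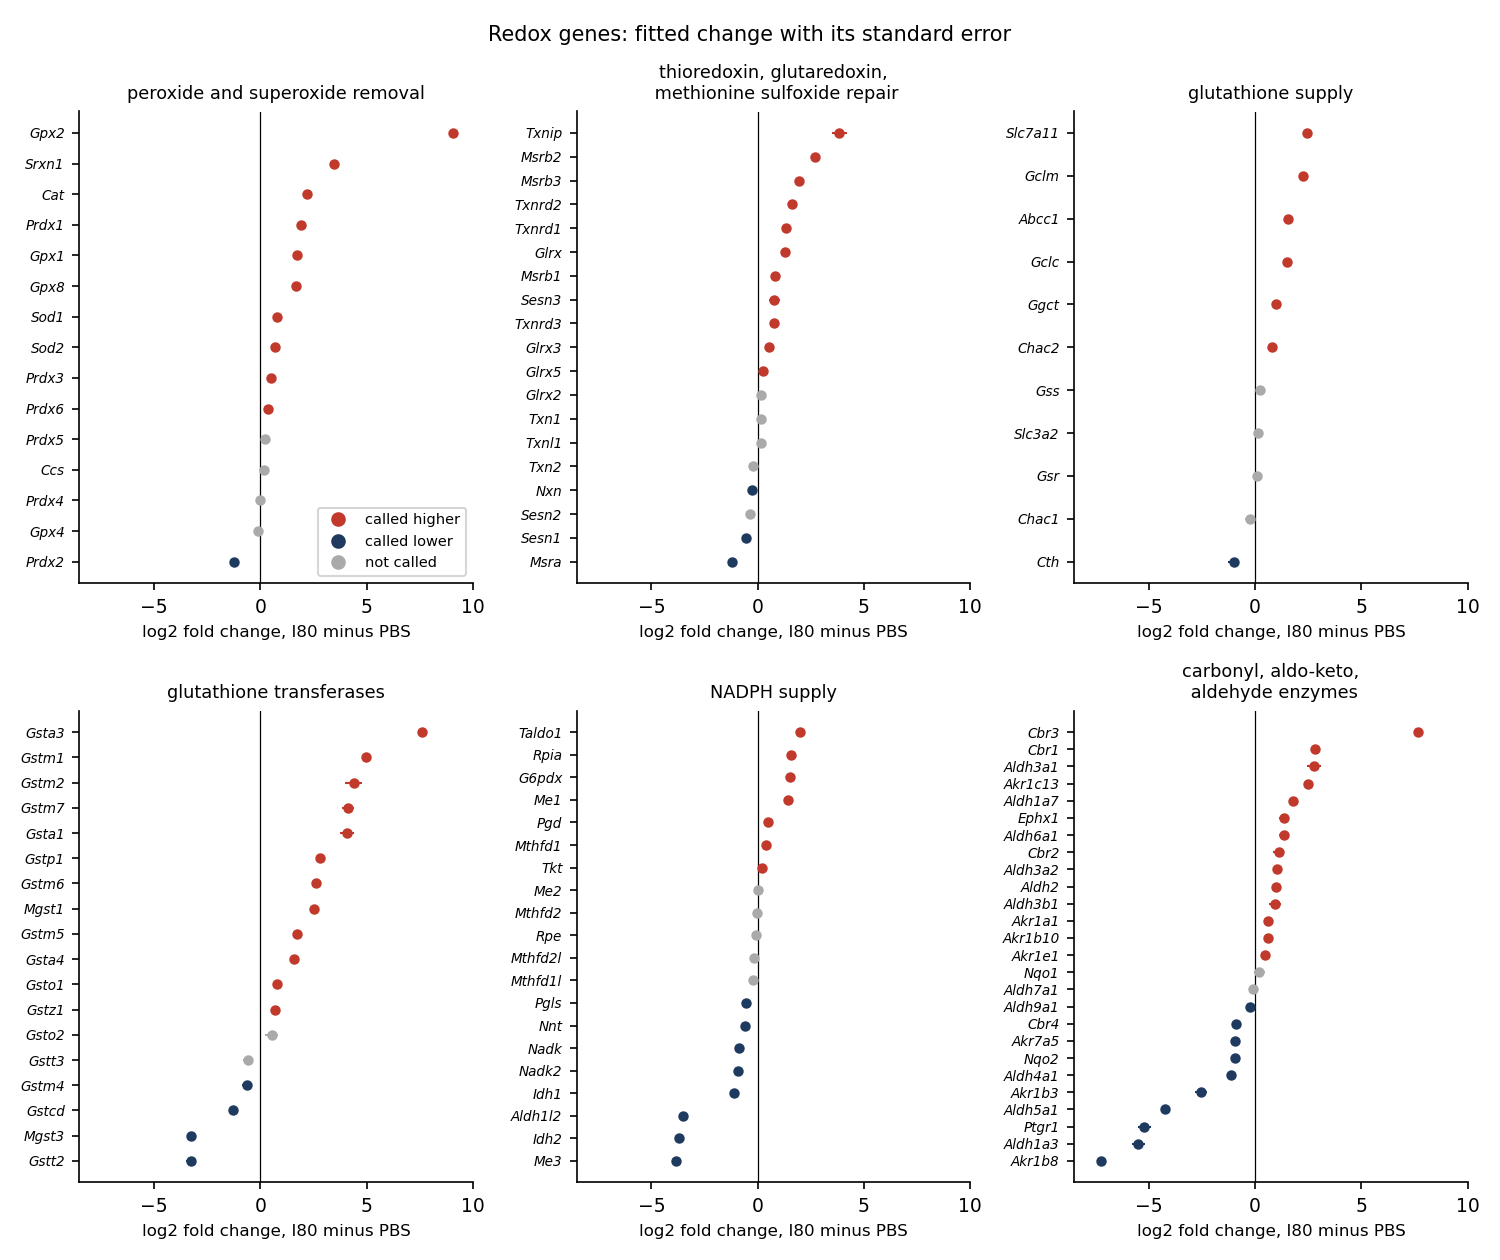
Fitted log2 fold change of I80 against PBS, with its standard error as a bar, for the tested genes of 6 redox lists. Red points were called higher, navy points lower and grey points were not called. Most points of the transferase panel lie right of 0, and the NADPH panel is split between cytosolic rises and several falls.

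Enzymes of NADPH supply, the electron source of both systems, were split, with 20 of 21 tested, 7 higher and 8 lower. The 3 largest rises were of Taldo1, Rpia and G6pdx, enzymes of the cytosolic pentose phosphate route. G6pdx, the first enzyme of that route, was at 259.5 and 233 CPM in PBS and 711 and 706 CPM in I80, 2.88-fold higher (limma adjusted p = 2.33e-06), above the 388 and 355 CPM of DI150 (adjusted p = 0.000166 between these lines). Taldo1, which recycles sugars of the route, rose 3.98-fold, from 194 and 214 to 799 and 826 CPM, and Rpia 3.004-fold. Pgls, which follows G6pdx in the route, fell 1.48-fold, from 57.4 and 69.4 to 42.5 and 43.4 CPM. Outside the route, the cytosolic malic enzyme Me1 rose 2.74-fold and the folate enzyme Mthfd1 1.32-fold, the latter a call that was lost without I80 replicate 1 or without I80 replicate 2. The largest falls were of mitochondrial enzymes. Idh2, the mitochondrial isocitrate dehydrogenase, went from 245 and 229.6 to 17.4 and 18.5 CPM, 13.2-fold lower (limma adjusted p = 2.19e-07). Me3, a mitochondrial malic enzyme, fell 26.1-fold, from 15.2 and 14.2 to 0.546 and 0.577 CPM. Aldh1l2, which makes NADPH from folate in mitochondria, fell 12.4-fold, from 57.4 and 56.1 to 5.19 and 3.998 CPM. The cytosolic Idh1 fell too, 2.15-fold, as did Nadk, the kinase that makes NADP, 1.81-fold.

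Carbonyl, aldo-keto and aldehyde enzymes had 26 of 34 tested, 14 higher and 10 lower. Cbr1, a carbonyl reductase, rose 7.31-fold, from 17.2 and 20.2 to 126 and 148 CPM, and the aldo-keto reductase Akr1c13 7.23-fold, to 9.44 and 9.89 CPM. Members of these families also fell. Ptgr1, a reductase of reactive lipid carbonyls, had 13.6 and 25.4 CPM in PBS and 1 read in I80, a ratio of pooled reads of 964 (95% exact interval 173 to 38115). Aldh1a3, which makes retinoic acid, had 16.2 and 34.7 CPM in PBS and 2 reads in I80, a ratio of 626 (95% exact interval 173 to 5173). Aldh5a1, of the breakdown of GABA, was without a read in I80 and at least 73.6-fold lower, while DI150 kept 5.52 and 5.53 CPM.

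The sensor and its factor rose together at the RNA level. Nfe2l2 was at 262 and 275 CPM in PBS and 444 and 457 CPM in I80, 1.68-fold higher (limma adjusted p = 2.94e-05), and Keap1 at 75.3 and 74.6 and 129 and 127 CPM, 1.71-fold higher (3.45e-05). Both were lower in DI150 than in I80, Nfe2l2 at 321 and 329.5 CPM (adjusted p = 0.00106) and Keap1 at 90.2 and 96.5 CPM (0.00156). Sqstm1, the autophagy receptor p62 that binds KEAP1, rose 2.73-fold, from 293 and 431 to 964 and 1009.9 CPM. Nfe2l3, a relative of NRF2, fell 86.4-fold (186 without I80 replicate 1, 56.2 without I80 replicate 2), from 12.1 and 18.6 to 0.273 and 0.0824 CPM. In all, 18 of 19 listed genes of NRF2 and its regulators were tested, with 10 higher (6 without I80 replicate 2) and 3 lower. Among the other redox lists, Hmox1, a heme oxygenase, was called lower (log2 fold change -0.57). Nqo1, a quinone reductase, was not called (0.20).

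NRF2 binds with small MAF proteins to the antioxidant response element, whose core was searched here as TGACNNNGC on both strands. RefSeq promoters of GRCm38.p6 (250 bases before to 50 after a start) were matched by gene. The core was in a promoter of 3781 of 27025 genes (13.99%), of 1559 of 9136 tested genes (17.1%), of 21 of 83 redox genes called higher (25.3%) and of 3 of 39 called lower (7.69%). Of the 20 largest rises, 1 of 17 with a promoter held it, and of the 20 largest falls 5 of 16. Over all tested genes with a promoter, it was in 18.1% of those called higher and 17.4% of those called lower. A match is a description and not a site of binding. The 250 bases before the start are shown, with the core in capitals, for 5 genes that rose and hold a match, from transfer to electrophiles (Gsta3 and the microsomal Mgst1), glutathione synthesis (Gclm), peroxide removal (Prdx1) and NADPH supply (G6pdx).
Gsta3 (chr1:21240335-21240584, + strand): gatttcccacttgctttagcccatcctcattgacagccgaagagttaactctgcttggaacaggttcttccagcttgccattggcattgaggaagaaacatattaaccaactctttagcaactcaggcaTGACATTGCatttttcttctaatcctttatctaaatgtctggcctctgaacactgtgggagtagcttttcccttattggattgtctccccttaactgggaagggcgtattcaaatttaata
Mgst1 (chr6:138140277-138140526, + strand): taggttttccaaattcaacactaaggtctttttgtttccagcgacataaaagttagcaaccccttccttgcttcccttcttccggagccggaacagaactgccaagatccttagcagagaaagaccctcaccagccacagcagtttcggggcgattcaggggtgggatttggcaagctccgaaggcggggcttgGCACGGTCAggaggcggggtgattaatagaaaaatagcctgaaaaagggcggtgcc
Gclm (chr3:122245307-122245556, + strand): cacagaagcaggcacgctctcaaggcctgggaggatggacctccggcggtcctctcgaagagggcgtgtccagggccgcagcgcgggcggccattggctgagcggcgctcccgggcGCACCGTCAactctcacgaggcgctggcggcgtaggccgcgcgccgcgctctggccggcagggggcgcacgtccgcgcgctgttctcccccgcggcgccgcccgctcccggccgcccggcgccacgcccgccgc
Prdx1 (chr4:116685349-116685598, + strand): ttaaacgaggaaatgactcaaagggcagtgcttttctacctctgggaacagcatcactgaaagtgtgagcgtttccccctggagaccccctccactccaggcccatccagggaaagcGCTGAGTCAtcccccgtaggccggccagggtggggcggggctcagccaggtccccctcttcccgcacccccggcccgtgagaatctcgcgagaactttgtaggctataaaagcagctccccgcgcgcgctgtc
G6pdx (chrX:74428881-74429130, - strand): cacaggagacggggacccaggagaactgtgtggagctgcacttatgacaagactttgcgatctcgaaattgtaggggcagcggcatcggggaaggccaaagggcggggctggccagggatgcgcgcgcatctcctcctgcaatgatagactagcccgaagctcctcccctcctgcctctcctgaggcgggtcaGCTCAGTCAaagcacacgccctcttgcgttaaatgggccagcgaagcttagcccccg
The match in Gsta3 reads as searched, and in the others it lies on the opposite strand, so that the capitals show its reverse complement. Counted back from the start, its first base stood at -121 in Gsta3, -56 in Mgst1, -134 in Gclm, -133 in Prdx1 and -57 in G6pdx. Beside these matches, Gsta3 was at 0.526 and 1.05 CPM in PBS and 241 and 253 CPM in I80, and Gclm at 62.6 and 51.9 CPM in PBS and 272 and 281 CPM in I80.

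Iron in its free form turns H2O2 into hydroxyl radicals, and 19 of 22 listed genes of iron, heme and metallothioneins were tested, 10 higher and 7 lower. Blvrb, a biliverdin reductase at the end of heme breakdown, rose 26.9-fold, from 11.01 and 15.2 to 338 and 367 CPM (limma adjusted p = 1.5e-07). Ftl1, the light chain of ferritin, rose 2.84-fold, from 589 and 567 to 1561 and 1725 CPM, while the heavy chain Fth1 was at 1086 and 1071 and 1165 and 1174 CPM (limma adjusted p = 0.361). Slc40a1, the iron exporter ferroportin, rose 4.36-fold, and Lcn2, a protein that binds iron-carrying siderophores, 8.67-fold, from 70.8 and 106 to 706 and 822 CPM. Lcn2 was higher in I80 than in DI150, which stood at 158 and 216 CPM (adjusted p = 0.000319). Steap3, an endosomal iron reductase, fell 51.8-fold, and Cp, the ferroxidase ceruloplasmin, 8.80-fold, from 72.1 and 137 to 11.4 and 12.4 CPM.

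Genes that produce or conduct peroxide moved both ways, with 12 of 28 tested. Of these, 6 were higher (50%) and 5 lower (41.7%), against 32.3% and 34.2% of all tested genes. Nox4, an oxidase that releases H2O2, fell 100.6-fold, from 19.2 and 20.9 to 0.234 and 0.165 CPM (limma adjusted p = 3.48e-07). Aqp5, a water channel that can pass H2O2, fell 3.83-fold, from 406 and 404 to 102 and 109 CPM. Aqp9, a channel for water, glycerol and other small solutes, rose from 1.95 and 6.27 to 39.3 and 43.5 CPM, 10.1-fold, and stood at 2.95 and 2.48 CPM in DI150 (against I80, adjusted p = 0.000419). The PBS replicates of Aqp9 lay apart, and without PBS replicate 1 and 2 the ratio was 6.60 and 21.2. Ero1a, an oxidase of the endoplasmic reticulum that yields H2O2, rose 2.63-fold. Of 15 listed ABC transporters 7 were tested, 5 higher (3 without either I80 library or PBS replicate 1) and 1 lower (2 without PBS replicate 1). Abcg2, which exports drugs and urate, rose 3.49-fold, from 50.3 and 51.2 to 189 and 166 CPM, still below the 482 and 466 CPM of DI150 (adjusted p = 2.43e-05). Enzymes that set the oxidisable lipids of membranes had 15 of 20 tested, 2 higher and 9 lower (5 lower without I80 replicate 2). Acsl4, which activates polyunsaturated fatty acids, rose 2.19-fold, from 236 and 302 to 588 and 593 CPM, and DI150 stood at 236 and 269.6 CPM (against I80, adjusted p = 0.000285). Acsl3, which favours monounsaturated ones, fell 2.24-fold.

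Mammary lineage genes fell more often than they rose. Of 32 listed luminal genes 20 were tested, 5 higher and 12 lower, with a median log2 fold change of -0.59. Krt8, which pairs with Krt18 in simple epithelium, fell 2.81-fold, from 2018 and 1883 to 674 and 716 CPM (limma adjusted p = 2.71e-06), and Ly6a, the surface antigen Sca-1, fell 35.9-fold, from 287 and 355 to 8.12 and 9.77 CPM. Elf3, an epithelial ETS factor, fell 6.19-fold. Its relative Elf5, which directs the alveolar lineage, stood at 157 and 190.3 and 166 and 185 CPM (limma adjusted p = 0.85). Genes of milk and hormone response were among the rises. Csn3, the milk protein kappa casein, rose from 4.85 and 13.5 to 361 and 360.2 CPM (39.3-fold, and 74.4 without PBS replicate 2), and Cited1, a coactivator in ductal cells, 92.6-fold, from 0.338 and 0.202 to 22.6 and 27.5 CPM. Gata3, the main luminal transcription factor, rose 1.75-fold, from 87.1 and 96.5 to 164 and 157 CPM. Esr1 and Pgr, the oestrogen and progesterone receptors, were below the level tested.

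No basal or myoepithelial gene was called higher with all libraries, and 1 was without PBS replicate 2. Of 27 listed 14 were tested, 10 were lower and 4 did not pass, and the median log2 fold change was -3.22. All 10 of the called members were at least 2-fold lower. Krt16, a keratin of stressed epidermis, fell 47.2-fold, from 20.2 and 28.7 to 0.624 and 0.412 CPM. Sox9, a progenitor transcription factor, fell 28.8-fold, from 29.1 and 24.3 to 0.780 and 1.07 CPM (limma adjusted p = 1.04e-06). Lgr6, a receptor for R-spondins, fell 2.58-fold, from 186 and 235 to 78.2 and 85.2 CPM. Acta2, Krt5 and Trp63 were below the level tested, and the called genes were Krt14, Krt15, Krt16, Krt6a, Trim29, Id4, Sox9, Procr, Nrg1 and Lgr6 (Krt6a with an adjusted p of 0.0975 by DESeq2). The cornified layer genes moved the same way, with 9 of 26 tested, 7 lower and 1 higher (0 higher without I80 replicate 1). Tgm1, which crosslinks the cornified envelope, fell 90.4-fold, from 58.0 and 79.1 to 0.897 and 0.618 CPM.

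Of 37 listed genes of tight and adherens junctions 24 were tested, 4 higher and 12 lower (7 lower without I80 replicate 1). Cldn4, a tight junction claudin, fell 224-fold (366 without I80 replicate 1), from 124 and 178 to 0.936 and 0.412 CPM. Nectin1 and Cdh13, which join neighbouring cells, had 52.0 and 50.5 CPM and 33.8 and 33.4 CPM in PBS and none in I80, at least 426-fold and at least 279-fold lower. Nectin3, a partner of Nectin1, went the other way, from 2.71 and 2.83 to 40.7 and 36.1 CPM, 13.9-fold higher (limma adjusted p = 2.33e-07). Desmosomes and hemidesmosomes had 19 of 23 tested, 6 higher and 11 lower. Plec, the linker plectin, fell 2.27-fold, from 1165 and 1066 to 494 and 488 CPM. Itga6, an integrin chain of hemidesmosomes, rose 2.26-fold, from 354 and 362 to 810.2 and 810.2 CPM, and Dst, another plakin, 3.20-fold. Among 23 tested epithelial regulators 4 were higher and 12 lower. Klf4, a factor of epithelial differentiation, fell 120.5-fold, from 21.3 and 36.7 to 0.234 and 0.247 CPM, while the AP-2 factors Tfap2b and Tfap2c rose 6.12-fold and 3.63-fold.

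Collagen genes changed in both directions. Of 40 listed genes of collagens and their processing 30 were tested, 15 higher and 11 lower, with 10 and 9 past 2-fold, and 20 of the 30 differed between DI150 and I80 (43.8% of all tested genes did). Col15a1, of basement membrane zones, rose 70.9-fold (46.4 without PBS replicate 1, 149.9 without PBS replicate 2), from 0.150 and 0.485 to 21.7 and 23.3 CPM. Col11a1, a fibrillar collagen of cartilage, rose 3.96-fold, from 112 and 195 to 606 and 613 CPM. Plod2, which hydroxylates lysines of collagen, rose 5.00-fold. Col5a1, which starts collagen I fibrils, fell at least 113-fold, from 12.8 and 14.3 CPM to no read, and Col7a1, the anchoring fibril of epithelium, 18.1-fold, from 49.3 and 55.2 to 2.65 and 3.13 CPM. Laminins, nidogens and proteoglycans had 28 of 42 tested, 7 higher and 17 lower. Gpc4, a cell surface heparan sulfate proteoglycan, rose 41.0-fold, from 0.752 and 0.445 to 24.9 and 24.1 CPM. Its relative Gpc1 fell 3.86-fold, from 359.8 and 359 to 92.7 and 93.4 CPM. Hspg2, the proteoglycan perlecan, went opposite ways in the treated lines, with 271 and 293 CPM in PBS, 2.85 and 3.05 CPM in I80 and 833 and 657 CPM in DI150 (DI150 against I80, limma adjusted p = 1.01e-07).

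Proteases and their inhibitors had 40 of 49 tested, 13 higher and 21 lower. Timp2, an inhibitor of metalloproteinases, fell 43.4-fold, from 434 and 524 to 10.5 and 11.5 CPM (limma adjusted p = 5.69e-08), Mmp9, a gelatinase, 66.9-fold, from 19.4 and 20.5 to 0.390 and 0.206 CPM, and Plau, the activator of plasminogen, 8.496-fold. The lysosomal proteases split. Ctsl fell 17.4-fold, from 108 and 109 to 6.13 and 6.35 CPM, and Ctsd rose 2.38-fold, from 655 and 866 to 1753 and 1862 CPM. The membrane proteases Adam9 and Adam15 rose 4.80-fold and 4.49-fold. Integrin and focal adhesion genes had 26 of 32 tested, 7 higher and 13 lower. Tns4, a tensin of focal adhesions, fell 108-fold, from 544 and 754 to 5.50 and 6.47 CPM, and Cav1, the coat of caveolae, 5.28-fold. Itgb3, a chain of the vitronectin receptor, rose from 3.23 and 9.34 to 128 and 115 CPM, 19.4-fold, and 37.7 without PBS replicate 2.

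Listed calcium-binding and lectin genes mostly fell. Of 30 listed S100 proteins, galectins and annexins 23 were tested, 15 were lower and 1 was higher (2 higher without either DI150 library), with a median log2 fold change of -1.06. S100a14 fell 174-fold, from 171 and 190.3 to 1.17 and 0.907 CPM, and Lgals3, a galectin, 4.91-fold, from 644 and 831 to 146 and 154 CPM. Lgals9 was the rise within the list, 2.07-fold. Outside the list, the annexins Anxa13 and Anxa9 were called higher, 4.46-fold and 1.93-fold (7.30 and 2.95 without PBS replicate 2). The call of Anxa9 was lost under some alternatives. S100a10, the annexin A2 partner, did not pass (limma adjusted p = 0.74). Of 32 actin and tubulin genes 27 were tested, 5 higher and 16 lower. The tubulins Tubb2b and Tubb6, close copies of other tubulins, fell 5.88-fold and 4.81-fold, and Tubb4b rose 1.72-fold. Actb stood at 2893 and 2594 and 2571 and 2764 CPM (limma adjusted p = 0.752). Of 14 tested mesenchymal genes 1 was higher and 11 were lower.

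The ERBB family and its ligands had 13 of 18 tested, 5 higher and 3 lower. Erbb3, the partner of ERBB2 that lacks strong kinase activity of its own, was at 86.0 and 104 CPM in PBS and 251 and 228 CPM in I80, 2.52-fold higher (limma adjusted p = 2.71e-05). Tgfa, a ligand of the EGF receptor, rose 2.76-fold, from 85.1 and 93.5 to 251 and 241 CPM. Its receptor Egfr fell 2.49-fold, from 25.5 and 32.1 to 12.1 and 11.1 CPM, and fell further in DI150, to 2.66 and 2.25 CPM (DI150 against I80, limma adjusted p = 9.12e-05). Nrg1, a ligand of ERBB3, fell 5.53-fold, from 43.2 and 38.4 to 7.73 and 7.05 CPM.

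Genes downstream of MAP kinases moved both ways. Of 35 listed 34 were tested, 10 higher (29.4%) and 16 lower (47.1%), against 32.3% and 34.2% of all tested genes. Spry4, an inhibitor of the pathway, rose 6.001-fold, from 5.94 and 4.25 to 34.6 and 26.5 CPM, and Spred1 3.88-fold. The ETS factors Etv1 and Etv5 rose 11.5-fold and 3.27-fold, the first from 1.99 and 3.68 to 33.1 and 32.4 CPM, and Etv4, of the same family, did not pass (limma adjusted p = 0.0583). Among immediate early genes calls went both ways. Fosl1, a subunit of AP-1, fell 19.8-fold, from 18.9 and 19.7 to 1.25 and 0.701 CPM. Junb fell 3.92-fold, from 192 and 245 to 63.7 and 47.6 CPM, and Fos, Jund and Fosb fell 3.83-fold, 2.76-fold and 3.81-fold. Egr3 and Atf3, other early factors, fell 23.3-fold and 8.13-fold, Jun rose 1.47-fold, and Ier3 did not pass (limma adjusted p = 0.0933).

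Other receptor kinases and their ligands had 38 of 49 tested, 12 higher and 21 lower. Met, the receptor of hepatocyte growth factor, fell 2.15-fold, from 419 and 368 to 182 and 184 CPM, and Ephb2, an ephrin receptor, 24.4-fold, from 40.5 and 45.8 to 1.72 and 1.81 CPM. The FGF receptors Fgfr1 and Fgfr2 rose 3.17-fold and 5.64-fold, Fgfr2 from 11.1 and 10.6 to 58.6 and 64.1 CPM. Igf2, a fetal growth factor, had 1 read in PBS and 8.70 and 8.66 CPM in I80, a ratio of pooled reads of 446 (95% exact interval 79.5 to 17639). Its receptor for degradation, Igf2r, rose 2.18-fold, and the signalling receptor Igf1r 2.65-fold.

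Of 43 listed Wnt genes 26 were tested, 7 higher (26.9%) and 12 lower (46.2%), against 32.3% and 34.2% of all tested genes. Wnt4, a ligand of mammary branching, fell 39.4-fold, from 22.7 and 26.7 to 0.429 and 0.824 CPM, and Tcf7, a target and mediator, 5.12-fold. Ccnd1, cyclin D1, was among the rises, 1.88-fold, from 1373 and 1347 to 2654 and 2457 CPM (limma adjusted p = 4.61e-05). In the TGF-beta, activin and BMP list 29 of 43 were tested, 6 higher (20.7%) and 15 lower (51.7%). The ligands Inhba and Tgfb1 fell 25.4-fold and 4.88-fold, Tgfb1 from 20.5 and 24.5 to 4.57 and 4.66 CPM. The inhibitor Bambi rose 3.48-fold. Id1, a target of BMP, fell 4.68-fold, from 68.7 and 65.4 to 16.04 and 12.6 CPM. In the Notch, Hedgehog and YAP list 29 of 38 were tested, 10 higher (34.5%) and 13 lower (44.8%). Dll1, a Notch ligand, rose 6.48-fold, from 38.1 and 37.6 to 253 and 237 CPM, and Notch1 2.39-fold. The YAP partner Tead2 fell 135-fold, from 75.1 and 66.8 to 0.351 and 0.701 CPM, and the YAP targets Ankrd1 and Ccn2 fell 361-fold and 3.47-fold, while Yap1 itself rose 1.42-fold. Among 26 tested axon guidance genes 10 were higher (38.5%) and 12 lower (46.2%). Unc5b, a netrin receptor, fell 67.0-fold, from 167 and 198 to 2.77 and 2.68 CPM. The semaphorin receptors parted, with Nrp2 10.0-fold lower and Nrp1 2.47-fold higher.

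Cholesterol synthesis and sterol control had 29 of 31 tested, 22 lower and 5 higher, with a median log2 fold change of -0.48. Srebf2, the factor that drives the pathway, fell 1.95-fold, from 379 and 389 to 200.1 and 194 CPM, and Hmgcs1, an early enzyme, 2.26-fold, from 139 and 158 to 71.4 and 60.3 CPM. Srebf1, its relative for fatty acid synthesis, rose 1.66-fold, from 496 and 591 to 927 and 879 CPM. Fatty acid genes had 30 of 40 tested, 10 higher and 9 lower. Fasn, the synthase, fell 2.24-fold, and Fabp5, a carrier of fatty acids, fell 36.0-fold, from 119.6 and 97.7 to 3.36 and 2.68 CPM (limma adjusted p = 1.59e-07). In peroxisomes, which make and break H2O2, 33 of 39 were tested, 8 higher, 7 lower and 18 not called. Acox2, an oxidase of bile acid precursors that releases H2O2, rose 4.10-fold, from 42.0 and 62.0 to 211 and 216 CPM. Sphingolipid and phospholipid enzymes had 32 of 35 tested, 9 higher and 15 lower, among them Degs1, the last step of ceramide synthesis, with 49.7 and 59.9 CPM in PBS and 1 read in I80 (ratio of pooled reads 2725 (95% exact interval 489 to 107670.0)).

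The glycolysis and hypoxia list had 31 of 37 tested, 12 higher and 12 lower. Glycolytic genes were among the rises. Hk1, hexokinase, rose 3.12-fold, from 310.5 and 344 to 1006 and 1034 CPM, Pfkp, a phosphofructokinase, 2.995-fold, and Slc2a1, the glucose transporter GLUT1, 2.29-fold. Aldoa, the aldolase, rose 2.78-fold, from 651 and 715 to 1849 and 1954 CPM. Some hypoxia genes were among the falls, whereas Egln3, which acts on HIF-alpha subunits, was 97.2-fold higher. Car9, carbonic anhydrase IX, had 8.27 and 9.42 CPM in PBS but none in I80, a difference of at least 73.5-fold. Ndrg1 fell 10.3-fold, from 102 and 170.0 to 13.97 and 12.6 CPM, and Epas1, the subunit HIF-2 alpha, 12.0-fold. Hif1a rose 1.81-fold, from 101.2 and 91.8 to 176 and 173 CPM, and its partner Arnt, which lies just beyond a run of raised genes on chromosome 3, 6.44-fold. Oxidative phosphorylation genes had 57 of 60 tested, 27 higher and 14 lower (8 lower without I80 replicate 1), and 1 of these changes, a rise, passed 2-fold. Cox4i1, of cytochrome oxidase, fell 1.60-fold, from 542 and 609 to 354 and 363 CPM.

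Proteasome subunits were mostly higher, with all 33 tested, 19 higher and 5 lower and a median log2 fold change of 0.31. Psmd4 and Psmb4, the members with the largest rises, lie within the run of chromosome 3. Counted with MHC class I presentation and not in this list, Psmb10, a subunit of the immunoproteasome, fell 2.06-fold, and Psme1 and Psme2, which form a proteasome activator, fell 2.24-fold and 2.40-fold. Chaperones of the endoplasmic reticulum and of heat shock had 36 of 37 tested, 7 higher and 16 lower. P4hb, a disulfide isomerase, fell 1.85-fold, from 1160.1 and 1071 to 599 and 608 CPM, and Hspa5, the chaperone BiP, stood at 939 and 817 and 912 and 927 CPM (limma adjusted p = 0.51). The integrated stress list had 33 of 35 tested, 13 higher and 7 lower. Atf5 rose 2.51-fold, from 67.4 and 78.4 to 195 and 171 CPM, and Atf4 did not pass (adjusted p = 0.973). Lysosome and autophagy genes had 36 of 38 tested, 9 higher, 7 lower and 20 not called. Without PBS replicate 2 there were 15 higher, and without PBS replicate 1 there were 15 lower, against 3 and 4 lower without I80 replicate 1 and 2. Gusb, the lysosomal beta-glucuronidase, had 57.3 and 60.2 CPM in PBS and 0 reads in either I80 library, at least 488-fold lower (limma adjusted p = 6.89e-08). Npc1, which exports cholesterol from lysosomes, rose 4.396-fold, from 40.5 and 41.2 to 179.8 and 179 CPM, and Hexa, a hexosaminidase, 4.06-fold. Of 47 cytosolic ribosomal protein genes 43 were tested, 18 higher and 10 lower (6 lower without I80 replicate 2), none past 2-fold.

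Of 35 listed p53 genes 31 were tested, 16 higher (10 and 9 without I80 replicate 1 and 2) and 6 lower, with a median log2 fold change of 0.34. Trp53 itself was at 338 and 297 CPM in PBS and 337 and 336 CPM in I80 (limma adjusted p = 0.339, and 0.0218 without PBS replicate 1). Bax, which opens mitochondria in apoptosis, rose 2.38-fold, from 100.2 and 118 to 262 and 258 CPM, and Fas, a death receptor, 2.41-fold. Replication genes had all 43 tested, 23 lower and 7 higher (4 and 3 higher without I80 replicate 1 and 2), with a median of -0.30. Mcm6, a subunit of the helicase, fell 2.47-fold, from 649 and 543 to 235 and 247 CPM, and Gins2 and Rfc3, of the helicase and the clamp loader, 2.36-fold and 2.12-fold. Of 24 tested genes of G1 to S, 6 were higher and 9 lower. Cdk6, a kinase partner of cyclin D, fell 3.81-fold, from 159.8 and 136 to 41.3 and 36.2 CPM. Mitosis genes had 38 tested, 7 higher (4 and 3 without I80 replicate 1 and 2), 12 lower (7 without I80 replicate 1) and 19 not called. Espl1, the protease separase, fell 2.15-fold, and Plk1 and Aurka did not pass (limma adjusted p = 0.54 and 0.985).

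Repair genes had 43 of 46 tested, 12 higher and 18 lower. Ung, which removes uracil from DNA, fell 4.65-fold, from 50.2 and 36.2 to 9.13 and 9.44 CPM, and Neil3, which removes oxidised bases, 2.11-fold. H2ax, the histone that is phosphorylated at breaks, rose 1.69-fold. Of 31 tested genes of the BCL2 family and cell death 6 were higher and 15 lower. Gsdmd, the pore of pyroptosis, had 31.6 and 41.9 CPM in PBS and none in I80, at least 306-fold lower, and Casp1, the protease that cleaves its product, rose 4.63-fold, from 20.6 and 30.0 to 119 and 115 CPM. Chromatin genes had 31 of 35 tested, 11 higher (5 and 6 without I80 replicate 1 and 2) and 9 lower. Phc2, of a Polycomb complex, fell 2.18-fold, from 407 and 407 to 188 and 186 CPM, and Bmi1, of the same class of complexes, rose 1.71-fold.

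Among immune genes, 65.2% of the tested chemokine list and 57.1% of the MHC list were lower, and 30.8% of the interferon list, against 34.2% of all tested genes. The chemokine, cytokine and NF-kB list had 23 of 45 tested, 4 higher and 15 lower (median log2 fold change -0.70). Tnfaip3, which limits NF-kB signalling, fell 31.1-fold, from 156 and 158 to 5.35 and 4.74 CPM, and Tnfaip2 208-fold (318 without I80 replicate 2), from 218 and 229 to 0.702 and 1.44 CPM. Of 20 listed genes of MHC class I presentation 14 were tested, 2 higher (0 on leaving out I80 replicate 1 or 2, 1 on leaving out PBS replicate 1 or a DI150 library, 4 without PBS replicate 2) and 8 lower. H2-K1, a class I heavy chain with close copies, fell 6.17-fold, from 279 and 292 to 45.5 and 46.9 CPM (limma adjusted p = 8.63e-08). It fell less far in DI150, to 176 and 168 CPM (against I80, adjusted p = 4.01e-06). Interferon response genes had 26 of 40 tested, 4 higher, 8 lower and 14 not called, with a median log2 fold change of 0.02. Without PBS replicate 2 there were 8 higher, and leaving out I80 replicate 1 or I80 replicate 2 left 5 lower. Trim25, a ubiquitin ligase of RNA sensing, had 29.5 and 30.9 CPM in PBS and none in I80, at least 251-fold lower, and Ifih1, an RNA sensor, rose 2.96-fold, from 6.80 and 9.46 to 25.1 and 23 CPM.

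Imprinted and long noncoding RNAs had 21 of 41 tested, 7 higher and 8 lower. Xist, which coats the inactive X chromosome, fell 1.63-fold, from 884 and 917 to 583 and 524 CPM (limma adjusted p = 0.000208), whereas DI150 stood at 21.5 and 24.4 CPM (against I80, adjusted p = 3.12e-07). How strand entered the counting is not given in the sources used here, so reads of Xist and of its antisense partner Tsix cannot be told apart. Neat1, the scaffold of nuclear paraspeckles, rose 3.51-fold, from 117 and 214 to 527 and 638 CPM. Homeobox genes, which hold positional identity, had 22 of 57 tested. Of these, 8 were higher (36.4%) and 9 lower (40.9%), against 32.3% and 34.2% of all tested genes. Neighbours of the HoxA cluster rose, with Hoxa3, Hoxa4 and Hoxa5 5.93-fold, 6.80-fold and 5.70-fold higher, and Hoxa7 fell 5.25-fold.

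The plot of medians by chromosome shows that calls were spread unevenly over the genome. On chromosome 8, 75.4% of 619 tested genes were lower and 7.75% were higher, with a median log2 fold change of -0.64. Chromosome 14 had a median of -0.59 with 70.2% lower, chromosome 15 one of -0.49 and chromosome 1 one of -0.43. On chromosome 2 the median was 0.43 with 61.1% of 890 tested genes higher, and on chromosome 12 it was 0.37 with 59.3% higher. Neighbouring genes are not independent of each other, and no test was made of these medians. The X chromosome stood at 0.07 in I80 and at -0.46 in DI150. DNA copy number was not measured.

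**Figure D4:**
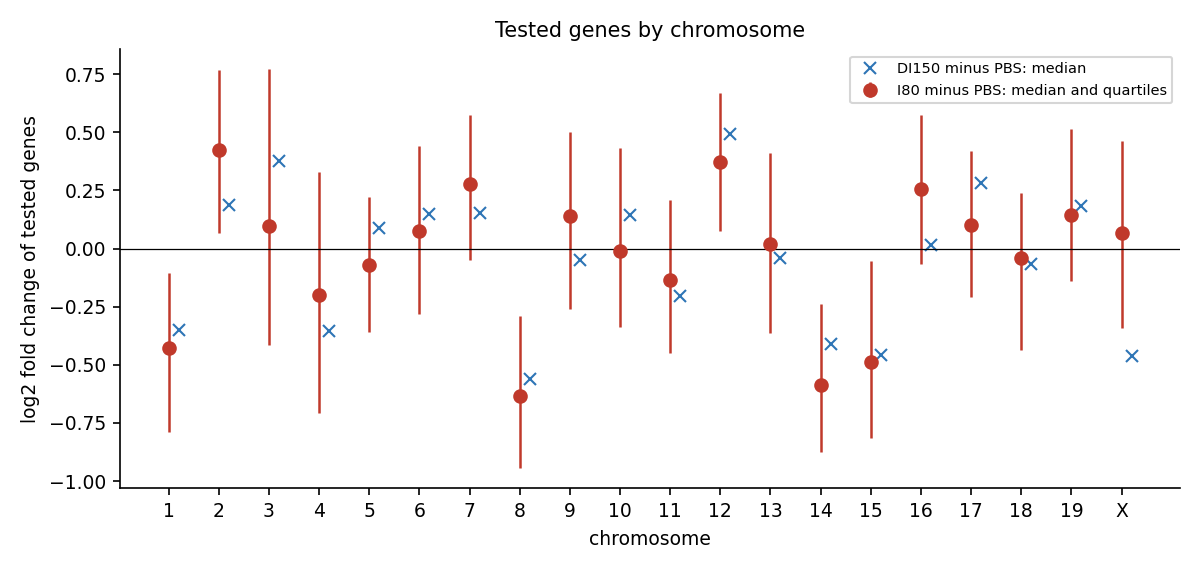
Median log2 fold change of the tested genes of each chromosome in I80 against PBS (red points, with lines from the lower to the upper quartile) and the median in DI150 against PBS (blue crosses). Chromosomes 1, 8, 14 and 15 lie below 0 in both lines and chromosomes 2 and 12 above, and the crosses share the PBS libraries with the points.

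A search for neighbouring genes that moved together, chosen after the values were seen, took runs of at least 15 consecutive tested genes that were all called and at least 2-fold higher. It found 1 such run, chr3:94822989-95296166 of GRCm38, 0.473 Mb long, from Pogz to Mindy1, with 21 genes. Their folds ran from 2.89 to 17.9 with a median of 5.75, and their median log2 fold change was 2.20. These high values follow in part from the 2-fold rule of the search. The other 532 tested genes of chromosome 3 had a median of 0.06, given as description and not as a test of the run. Psmb4, a proteasome subunit, was at 222 and 221 CPM in PBS and 983 and 1009 CPM in I80, 4.50-fold higher (limma adjusted p = 1.59e-07), and Psmd4, the ubiquitin receptor of the proteasome, at 212 and 199 and 1146 and 1216 CPM, 5.75-fold higher. Cdc42se1, a binding protein of the GTPase CDC42, rose 7.11-fold, from 235 and 268 to 1770.1 and 1802 CPM. Pip5k1a and Pi4kb, which make phosphoinositides, rose 3.99-fold and 4.63-fold. Mllt11 rose 11.9-fold, from 14.99 and 14.6 to 192 and 159 CPM, and overlaps Gm16740, so their reads may be shared.

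The run lies within a longer one of 33 consecutive tested genes, all called higher, from Mrpl9 to Mcl1 over 1.22 Mb, and ends where single genes miss the 2-fold limit: Cgn before it was 1.72-fold and Anxa9 after it 1.93-fold higher. The call of Anxa9 was lost on leaving out PBS replicate 1, I80 replicate 1 or I80 replicate 2. Of the 15 tested genes before it 6 were higher, with a median log2 fold change of 0.03, and S100a6, at 1580.2 and 1619 CPM in PBS, fell to 678 and 678 CPM. Of the 15 after it 12 were higher, with a median of 0.80. Cers2, a ceramide synthase just beyond Anxa9, rose 6.51-fold, from 305 and 303 to 1971 and 1990.4 CPM, Setdb1, a histone methyltransferase, 4.52-fold, and Arnt, a partner of HIF-alpha subunits, 6.44-fold. Mcl1, a survival gene of the BCL2 family, rose 1.39-fold, and Ecm1 next to these genes fell 15.03-fold. In DI150 the run was also higher than in PBS, with a median log2 fold change of 2.61 against the same PBS libraries. Between DI150 and I80, 17 of the 21 genes differed, against 43.8% of all tested genes, and 16 of the 17 were higher in DI150. Bnipl was the exception, with 293 and 324 CPM in I80 and 196 and 168 CPM in DI150 (adjusted p = 0.0264). The only run of the same kind downwards was of 22 protocadherin gamma genes on chromosome 18, which share exons, so their reads are not separate measurements.

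**Figure D5:**
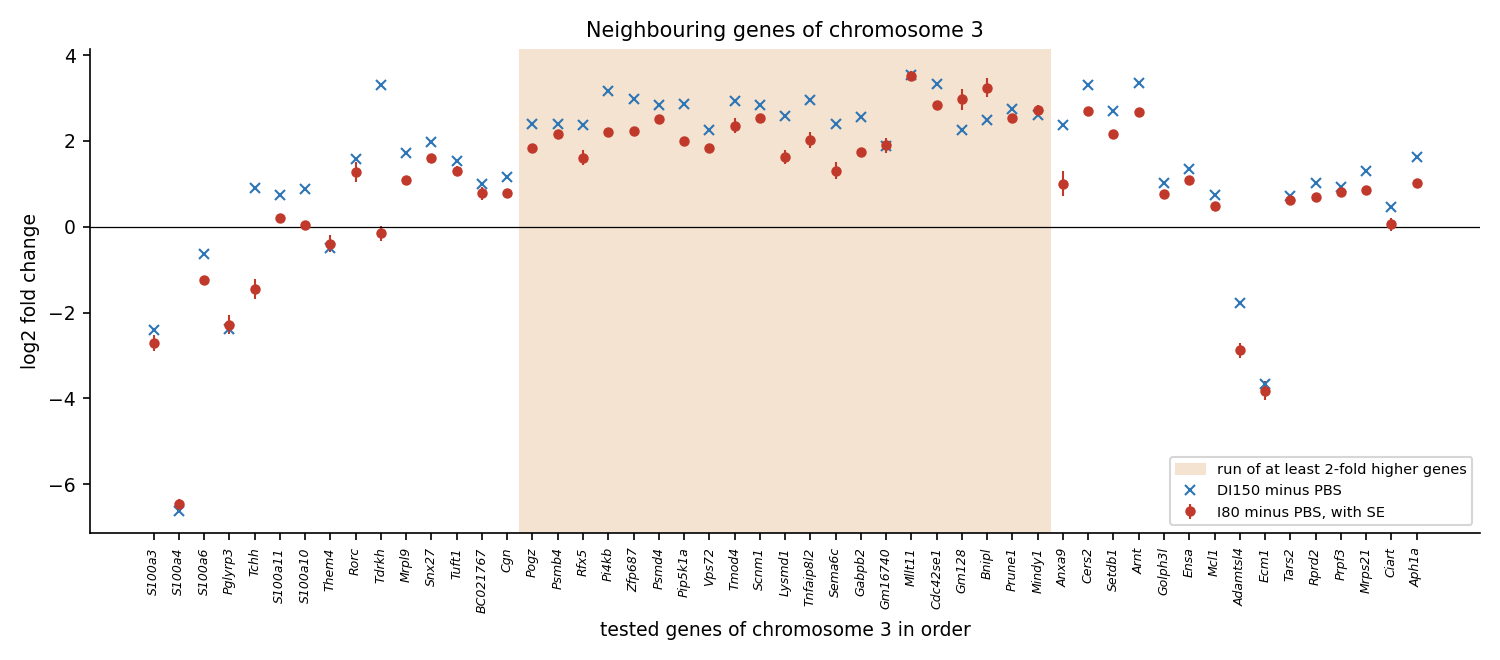
Log2 fold change against PBS of consecutive tested genes of chromosome 3, with the 21 genes of the run shaded and 15 genes on either side, for I80 (red points with standard errors) and DI150 (blue crosses). Within the shading every red point lies above 1, where the 2-fold rule that chose the run tends to place it. Red points such as Cers2, Setdb1 and Arnt after the shading and Snx27 and Tuft1 before it also lie above 1, and farther out S100a4, Adamtsl4 and Ecm1 lie below 0.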

How the data were processed

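Total RNA for the 6 libraries was depleted of ribosomal RNA and sequenced as single 81-base reads with a stranded kit, per the labels' protocols. Reads were handled with STAR and mm10, per the submitters' processing notes. How reads were counted per gene, with which annotation and strand setting, is not given in the sources used here. What the authors deposited is 1 table of CPM with 24454 Entrez gene numbers, of which 24374 (99.7%) matched a RefSeq table of GRCm38.p6 that gave symbols and positions. Whole reads (tolerance 1e-06 reads) were recovered from 100% of the 146724 deposited CPM by dividing by the worth of 1 read.

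limma 3.58.1 (R 4.3.3, lmFit, eBayes with trend) was fitted to log2(CPM + 0.5) of all 6 libraries for the 11428 genes averaging 1 CPM or more. A run on simulated data had far fewer changed genes than were called here. It checked the code and cannot give the error rate of these calls. All p-values are two-sided and adjusted by Benjamini and Hochberg over all tested genes, with calls at 0.05. A fold against a group with no read used a floor of 3 reads per library, and pooled reads were compared with an exact 95% interval, both of which cover counting error only. The DI150 column numbered 3 was used as a DI150 library without a label number of its own.

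The genes named are the 20 largest rises and the 20 largest falls among called genes averaging 5 CPM or more in the PBS and I80 libraries, with no overlap, the 10 largest each way by CPM, the members of the gene lists with the largest changes, and defining members that did not pass, with a few genes not reported here. Gene lists came from textbook knowledge, and some share genes. The comparison, the members and the lists were chosen with earlier results of these data known. Alternatives were other pseudocounts, filters, scalings and groups of libraries, a replicate block, edgeR 4.0.16 and DESeq2 1.42.0 on the recovered reads, each library left out in turn, and a looser promoter core.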

Additional observations from a re-analysis of the deposited data

Results flagged for a closer look

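Hunk and Nxf7, among the 20 largest rises, differed at least 4-fold between the treated lines by a test of the difference itself, limma's contrast of DI150 against I80. Hunk was at 0.338 and 0.202 CPM in PBS, 90.4 and 80.6 CPM in I80 and 2.998 and 3.66 CPM in DI150, a log2 difference of -4.49 ± 0.16 SE (adjusted p = 4.13e-06). Nxf7 had no read in PBS, 22.98 and 24.03 CPM in I80 and 1.28 and 0.954 CPM in DI150, a log2 difference of -3.90 ± 0.17 SE (adjusted p = 9.66e-06). In both genes the DI150 libraries lay between the PBS and the I80 libraries. Nxf7 lies on the X chromosome and Hunk on chromosome 16.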

How the results depend on the processing

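Under 16 alternatives the number of genes called higher ran from 2839 to 3902 and of those called lower from 3139 to 4418, against 3687 and 3904, and those at least 2-fold from 837 to 1509 higher and from 996 to 2098 lower, against 1128 and 1408. edgeR on the recovered reads called 3668 higher and 3942 lower, and 7509 of the 7591 limma calls were made the same way by edgeR and 7257 by DESeq2. The labels number the PBS and I80 libraries alike. Across genes, the replicate difference in PBS correlated at 0.02 with that in I80. With 2 libraries a group this cannot decide whether the numbers pair them, and the main fit did not pair them. With the replicate block 3463 genes were called higher and 3710 lower. Of 1070 called list members and ranked genes no direction turned, 853 held their call under every alternative, and the others lost it under at least 1, most often without I80 replicate 1 (165) or I80 replicate 2 (175). The cause was not tested. The 40 ranked genes held theirs. The median of 8 of 55 lists changed sign, among them collagens (0.24, and -0.08 with no filter) and peroxide sources (0.04, and -0.35 at a mean of at least 5 CPM). With the looser promoter core TGANNNNGC, 51.8% of redox genes called higher and 47.9% of tested genes held a match. Genes averaging under 1 CPM, among them Esr1, Trp63 and Krt5, are not tested in the report. With no filter on low values such genes were tested too, which gave the 3902 higher and 4418 lower.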
